A study of Rattus norvegicus with 20 samples.

Results

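Kisspeptin (Kiss1), neurokinin B (Tac3) and dynorphin (Pdyn) were examined in the arcuate nucleus of female rats together with the receptors of neurokinin B (Tacr3) and dynorphin (Oprk1) and the receptors of estrogen (Esr1) and progesterone (Pgr). These 7 genes, of 25926 gene names on the array, were found by their symbols and were read by 8 probes. Oprk1 had 2 probes and each other gene had 1. All 20 samples were Sprague-Dawley females killed on postnatal day 15, 4 in each condition, and the tissue was the arcuate nucleus of the hypothalamus. SNS rats were born to dams injected with saline on gestational day 15, received saline after birth and had no spasms. The dams of all other rats received betamethasone, a synthetic glucocorticoid, at 0.4 mg/kg per dose on that gestational day. BNS rats then received saline and had no spasms. In BYS, BYA and BYP rats spasms were triggered with NMDA, an agonist of glutamate receptors, on postnatal days 12, 13 and 15. BYS rats received saline, BYA rats ACTH and BYP rats PMX53, an antagonist of the complement receptor C5ar1. The spasms were chemically induced after prenatal exposure, so that BYS, BYA and BYP differ from SNS in the steroid and in NMDA at once, and there was no group with spasms and no steroid. The labels do not say whether the rats of a condition came from separate litters, and p-values measure only the spread between these samples.

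In the arcuate nucleus, kisspeptin, neurokinin B and dynorphin are made largely by the same neurons, often called KNDy neurons, which drive the pulsed release of gonadotropin-releasing hormone. Kisspeptin acts on the neurons that make that hormone, neurokinin B excites KNDy neurons through Tacr3, and dynorphin quiets them through the kappa opioid receptor encoded by Oprk1. Estrogen lowers Kiss1 and Tac3 in these cells of adult females, and the progesterone receptor takes part in the feedback of ovarian steroids.

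The sequences below are the target bases of probes on which the measurements rest, as deposited with the arrays, on rat build rn4 of the probe annotation. The probe of Kiss1 lies at chr13:46244823-46244882 on the plus strand and that of Esr1 at chr1:35660062-35660121 on the plus strand, each shown whole (60 bases). For Tac3 (chr7:67723606-67723665, plus strand) and for the 2 probes of Oprk1 (chr5:14038275-14038334 and chr5:14040848-14040907, minus strand), which gave different results, the last 30 bases are shown. Capitals mark AATAAA, the letters of the common polyadenylation signal, found in 1 of the 8 probes as printed and in 0 on the other strand. Of all 30367 probes of 60 bases, 8.39% hold these letters as printed and 2.86% on the other strand.
Kiss1: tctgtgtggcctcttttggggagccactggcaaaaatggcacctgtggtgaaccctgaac
Tac3: ctcctcaacAATAAAgggtttttacaatgg
Oprk1, probe A_43_P15269: gcacatgtgcatgataatagatggcagtgg
Oprk1, probe A_64_P096619: agccatgttatgcaatctaaaggtgcaggg
Esr1: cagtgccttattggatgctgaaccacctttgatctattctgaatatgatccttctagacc
The probes of Pdyn (chr3:117291061-117291120, minus strand), Tacr3 (chr2:232404773-232404832, plus strand) and Pgr (chr8:5845716-5845775, plus strand) are named by position only. No annotation of rn4 was used here, so that the exon or untranslated region under a probe is not given.

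The samples lay on 11 arrays of 6 slides, and 9 arrays carried 2 animals of the same condition in the Cy3 and Cy5 channels. The arrays of BYA replicates 3 and 4 carried a male rat of another series in the other channel, which was not used. Among the 20 samples, no slide held more than 1 condition (of these, BYA replicate 3 alone lay on its slide), and therefore slide and condition cannot be told apart. Signals exceeded the background, at the median, by ratios of 6.89 (SNS), 15.9 (BNS), 15.9 (BYS), 7.48 (BYA) and 9.12 (BYP). Of 9 markers of arcuate nucleus neurons, 8 were well above background in all 20 samples, among them Pomc, Agrp and Npy, and Nr5a2 was so in 9 samples. Of 7 markers of the pituitary, Prl, Gh1 and Tshb were well above background in 0, 1 and 2 samples. Fshb, Pou1f1, Cga and Lhb were so in 5, 8, 15 and 20 samples.

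Levels are given as normalized log2 intensities and differences as log2 differences between the means of 4 samples, so that a difference of 1 is a doubling. A probe counts as well above background in a sample where 0.5 or more of its spots carried that mark of the scanner software. Kiss1, Tac3, Pdyn and Tacr3 passed this in all 20 samples, Oprk1 in 17 for probe A_43_P15269 and 9 for probe A_64_P096619, Pgr in 14 and Esr1 in 3. None of the 8 probes was saturated in any sample. Esr1 was not tested, since in no condition was it well above background in all 4 samples, and 6 of the 7 genes entered limma's fit over all genes.

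Tac3 was lower and Oprk1 higher in BYS than in SNS, and Oprk1 was higher in BNS than in SNS, at an adjusted p under 0.05. No other difference of these genes passed that threshold. Of the 6 genes tested, 1 passed between BNS and SNS, where 28.6% of all genes passed, and 2 between BYS and SNS, where 27.1% passed. None of the 6 passed by limma between BYA and SNS (31.3% of all genes, and 1 member at an unadjusted p under 0.05, as 42.4% of all genes) or between BYP and SNS (28.9%, and 0 members at an unadjusted p under 0.05, against 41.5% of all genes). None passed by limma between BYS and BNS (0.0293% of all genes), BYA and BYS (0%), BYP and BYS (0.0351%), BYA and BNS (0.117%), BYP and BNS (1.5%) or BYP and BYA (0.158%). At an unadjusted p under 0.05, the members numbered 0 between BYS and BNS (6.92% of all genes), 0 between BYA and BYS (8.07%), 1 between BYP and BYS (8.51%), 0 between BYA and BNS (13.1%), 1 for BYP against BNS (17.8%) and 1 for BYP against BYA (13.6%). None of the 6 passed the F test over the 5 conditions, which 30.4% of all genes passed, and the lowest adjusted p was 0.0947, of Oprk1. The share of members called was thus near or below that of all genes in the comparisons with SNS.

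**Figure D1:**
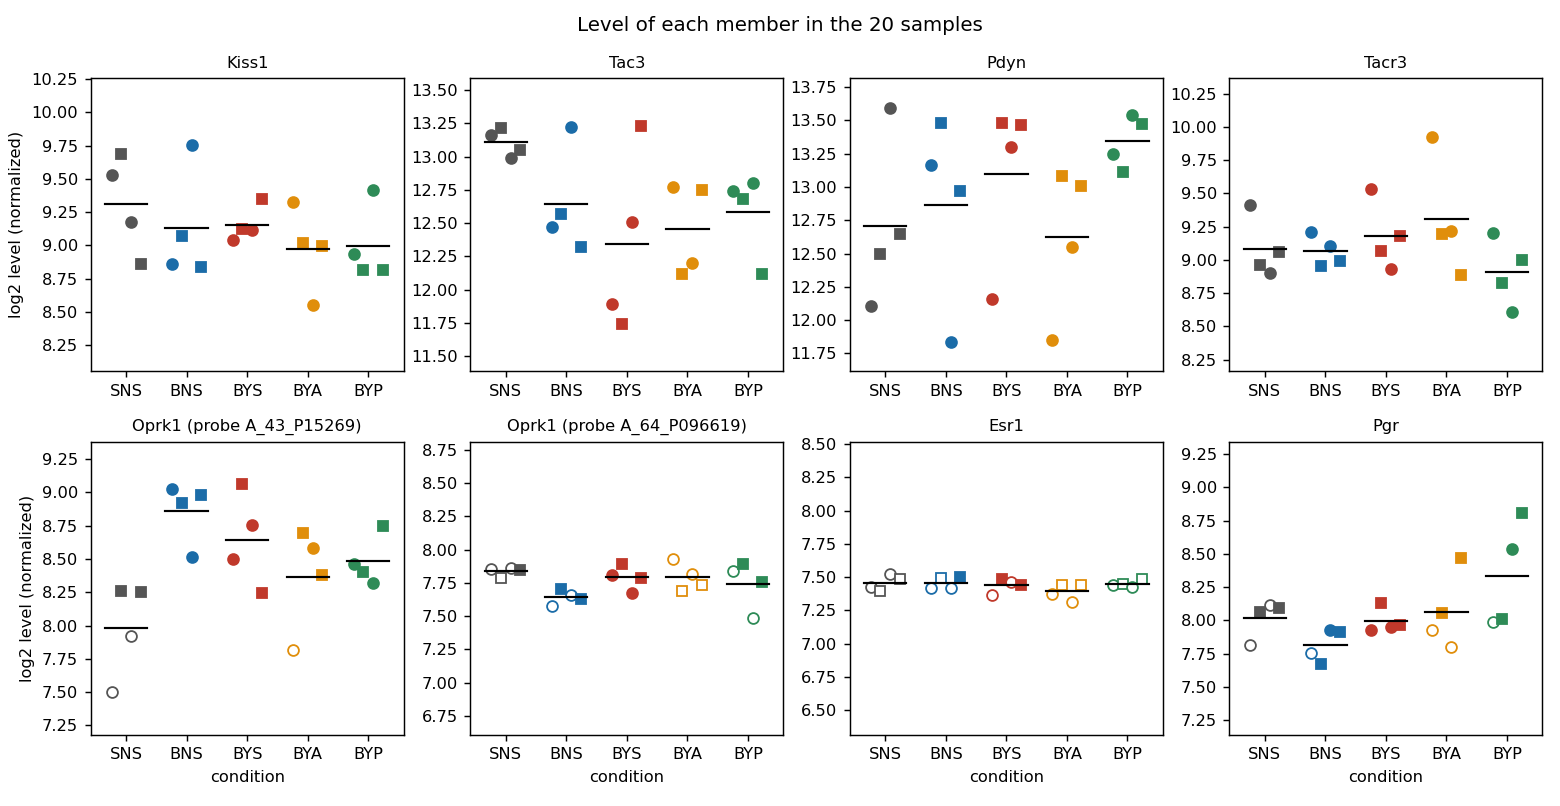
Normalized log2 level (vertical axis) of each of the 8 probes in the 20 samples by condition, with circles for Cy3, squares for Cy5, open symbols where under 0.5 of the spots were well above background, and a line at the mean of 4 samples. The 4 SNS samples of Tac3 lie between 12.99 and 13.22, and the samples of Esr1 all lie between 7.31 and 7.52.

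Kiss1, whose peptide is the main stimulator of the gonadotropin-releasing hormone neurons, did not pass the test in any comparison. Its level was 9.53, 9.68, 9.17 and 8.86 in SNS replicates 1 to 4, 8.86, 9.07, 9.76 and 8.84 in BNS, and 9.04, 9.12, 9.11 and 9.35 in BYS. It was 9.33, 9.02, 8.55 and 8.99 in BYA and 8.93, 8.81, 9.42 and 8.81 in BYP. The 5 conditions overlapped, the highest sample was a BNS rat and the lowest a BYA rat. The means ran from 9.31 ± 0.37 in SNS (SD, n = 4) through 9.16 ± 0.14 in BYS, 9.13 ± 0.43 in BNS and 8.99 ± 0.29 in BYP to 8.97 ± 0.32 in BYA, and no neighbours in this order differed beyond their spread. BNS was lower than SNS by a difference of -0.18 (95% interval -0.63 to 0.27), and BYS differed from BNS by 0.03 (-0.42 to 0.47). The difference was -0.18 (-0.63 to 0.26) between BYA and BYS and -0.16 (-0.61 to 0.28) between BYP and BYS. These intervals still allow changes of Kiss1 of up to 0.63 on the log2 scale.

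Tac3, which encodes neurokinin B, had its highest mean and smallest spread in SNS. It was called lower in BYS than in SNS, a call that depended on the processing. Its level was 13.17, 13.22, 12.99 and 13.05 in SNS, 12.47, 12.57, 13.23 and 12.32 in BNS, and 11.89, 11.74, 12.51 and 13.23 in BYS. It was 12.77, 12.12, 12.20 and 12.74 in BYA and 12.74, 12.68, 12.80 and 12.12 in BYP. All 8 BYA and BYP samples were below all 4 SNS samples, whereas BNS replicate 3 and BYS replicate 4 reached the level of SNS. The mean was 13.11 ± 0.10 in SNS (SD, n = 4), 12.65 ± 0.40 in BNS, 12.58 ± 0.31 in BYP, 12.46 ± 0.35 in BYA and 12.34 ± 0.68 in BYS.

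Between BYS and SNS the difference in Tac3 was -0.76 (SE 0.270, 95% interval -1.33 to -0.19), a level 1.69-fold lower in BYS (limma adjusted p = 0.0439). It was -1.09 without BYS replicate 4 and -0.56 without BYS replicate 2, and the call was lost without any of BYS replicates 1 to 3, the 4 SNS samples, BNS replicate 2 or BYP replicate 1 (adjusted p from 0.0505 to 0.148). The call was also lost with both channels of an array taken as related (adjusted p = 0.129) and with the processed signals of the scanner software (-0.33, adjusted p = 0.502). BYA and BYP were lower than SNS by differences of -0.65 (adjusted p = 0.0751) and -0.52 (adjusted p = 0.152), with no overlap of the samples, as was found for 26.7% and 26.6% of all genes. The step from SNS to BNS was -0.46 (-1.03 to 0.11, adjusted p = 0.204), but it was -0.90 with all channels scaled to a common median (adjusted p = 0.0295) and -0.03 with the processed signals (adjusted p = 0.962). The step from BNS to BYS was -0.30 (-0.87 to 0.27), that from BYS to BYA 0.11 (-0.45 to 0.68) and that from BYS to BYP 0.24 (-0.33 to 0.81). In tissue made of many cell types, fewer cells of a type and less RNA per cell cannot be told apart. In BYS, the mean of the 9 arcuate markers was 12.23, 12.15, 12.30 and 12.59 in replicates 1 to 4, in the same order as Tac3, and over the conditions it ranged from 12.04 to 12.91 in SNS and from 12.15 to 12.59 in BYS. Of these markers 1 of 9 was called lower in BYS than in SNS, as were 12.6% of all genes. The mean of 7 markers of tanycytes and ependyma, which line the ventricle beside the nucleus, also ran in this order in BYS, at 10.83, 10.61, 10.99 and 11.20, and ranged from 10.68 to 11.21 in SNS. In each of the other conditions, the exact order of both marker means differed from that of Tac3. Over the 20 samples within conditions, Tac3 had r = 0.51 with the arcuate marker mean and 0.67 with that of tanycytes and ependyma. In SNS, replicate 3 was the highest in both marker means (12.91 and 11.21) and the lowest in Tac3. In BNS and in BYP, replicate 3 was the highest in both marker means and in Tac3. The part of either cell content in the difference was not tested.

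Pdyn, which encodes the precursor of dynorphin, varied most among rats of the same condition and passed the test nowhere. Its level was 12.10, 12.50, 13.59 and 12.65 in SNS, 13.17, 13.48, 11.84 and 12.97 in BNS, and 12.16, 13.48, 13.30 and 13.46 in BYS. It was 11.85, 13.08, 12.55 and 13.01 in BYA and 13.25, 13.11, 13.54 and 13.47 in BYP. A low sample stood apart in BNS and in BYS, SNS and BYA were spread widely, and BYP alone of the 5 conditions had no sample under 13. The spread within conditions, pooled over the 5, was an SD of 0.58, against 0.41 for Tac3, 0.32 for Kiss1 and 0.28 for Tacr3. The means were 13.34 ± 0.20 in BYP (SD, n = 4), 13.10 ± 0.64 in BYS, 12.86 ± 0.72 in BNS, 12.71 ± 0.63 in SNS and 12.62 ± 0.57 in BYA. The widest difference was between BYP and BYA (0.72, 95% interval -0.01 to 1.46, limma adjusted p = 0.375), where the 4 BYP samples were above the 4 BYA samples, as was found for 6.05% of all genes in one direction or the other. Without BYA replicate 1 this difference was 0.52. The steps of the design were 0.15 from SNS to BNS (-0.58 to 0.89), 0.24 from BNS to BYS (-0.50 to 0.97), -0.48 from BYS to BYA (-1.21 to 0.25) and 0.24 from BYS to BYP (-0.49 to 0.98).

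Pdyn is also made by neurons of the ventromedial hypothalamus, which borders the arcuate nucleus. Within conditions its level moved with the mean of 6 markers of that nucleus (r = 0.79, n = 20), namely Nr5a1, Fezf1, Sox14, Adcyap1, Bdnf and Slc17a6. In SNS, BNS, BYS and BYA the sample lowest in Pdyn was also the lowest in the mean of these markers. The marker mean was 10.56 in SNS replicate 1, 10.47 in BNS replicate 3, 10.72 in BYS replicate 1 and 10.50 in BYA replicate 1, and the highest sample of those conditions was at 10.92, 11.18, 11.12 and 11.14. In BYP the marker means were 10.97 to 11.20, and the rat lowest in Pdyn was the highest in the markers. None of the 6 markers was called by limma between BYP and BYA, with a median difference of 0.19. Other marker means were also related to Pdyn within conditions. Its r was -0.70 with 6 markers of the premammillary and mammillary nuclei, -0.58 with 6 of oligodendrocytes and 0.55 with 2 of magnocellular neurons. The part of tissue from the ventromedial nucleus or of other cell content in the differences of Pdyn was not tested.

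Tacr3, the receptor through which neurokinin B acts, differed little between conditions. Its level was 9.41, 8.96, 8.90 and 9.06 in SNS, 9.21, 8.95, 9.10 and 8.99 in BNS, and 9.54, 9.07, 8.93 and 9.18 in BYS. It was 9.92, 9.19, 9.22 and 8.89 in BYA and 9.20, 8.83, 8.61 and 9.0 in BYP. All conditions overlapped, and BYA replicate 1 was the highest sample. BYP was lower than BYA by a difference of -0.40 (95% interval -0.76 to -0.03), which did not pass the adjustment over all genes (limma adjusted p = 0.329) and was -0.21 without BYA replicate 1. The steps of the design were -0.02 from SNS to BNS (-0.39 to 0.35), 0.11 from BNS to BYS (-0.25 to 0.48), 0.13 from BYS to BYA (-0.24 to 0.49) and -0.27 from BYS to BYP (-0.64 to 0.10).

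Oprk1, the kappa opioid receptor, was up-regulated in BNS and BYS relative to SNS, and the rise came from 1 of its 2 probes. Probe A_43_P15269 was at 7.50, 8.26, 7.92 and 8.25 in SNS, 9.03, 8.92, 8.51 and 8.98 in BNS, and 8.50, 9.06, 8.76 and 8.24 in BYS. It was at 7.82, 8.69, 8.58 and 8.38 in BYA and 8.46, 8.40, 8.32 and 8.75 in BYP. The 4 BNS samples were all above the 4 SNS samples, and so were the 4 BYP samples, whereas BYS replicate 4 lay within the range of SNS. No overlap was found for 32.5% of all genes between BNS and SNS and for 26.6% between BYP and SNS. This probe was well above background in 2 of 4 SNS samples, in 4 of 4 in BNS, BYS and BYP, and in 3 of 4 in BYA.

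In limma's fit on probes, in which 28.7% of all probes passed between BNS and SNS, the measured level of this probe was 1.84-fold higher in BNS (0.88, SE 0.189, 95% interval 0.48 to 1.27, adjusted p = 0.00244). The mean of SNS includes replicates 1 and 3, in which the probe was not well above background, and it passed the filter on dim probes through BNS, BYS and BYP. With all probes kept, the adjusted p was 0.00337. The difference stayed between 0.75 and 0.96 when any of the 20 samples was left out, with an adjusted p under 0.05 each time. It was 0.66 between BYS and SNS (adjusted p = 0.0165, where 27.4% of all probes passed). It was 0.50 between BYP and SNS (adjusted p = 0.0544, 29.2% of probes) and 0.38 between BYA and SNS (adjusted p = 0.128, 31.8% of probes). These differences share the SNS samples, which had the lowest ratio of signal to background, and the part of that ratio in the rise was not tested.

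Probe A_64_P096619 lies in the same gene and did not follow. It was at 7.85, 7.79, 7.86 and 7.84 in SNS, 7.57, 7.70, 7.65 and 7.63 in BNS, and 7.81, 7.89, 7.68 and 7.79 in BYS. It was at 7.93, 7.69, 7.81 and 7.74 in BYA and 7.84, 7.89, 7.49 and 7.76 in BYP. The BNS samples were all below the SNS samples, with a difference of -0.20 that did not pass the test (adjusted p = 0.114). Between BNS and SNS, 32.5% of all genes had no overlap, in one direction or the other. This probe was well above background in 1 of 4 SNS samples, 2 of 4 BNS, 4 of 4 BYS, 0 of 4 BYA and 2 of 4 BYP samples, so that BYA has only an upper bound.

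The level of Oprk1 as a gene is the mean of both probes. It was 7.67, 8.02, 7.89 and 8.05 in SNS and 8.30, 8.31, 8.08 and 8.31 in BNS, without overlap, as was found for 32.5% of all genes. The difference was 0.34 between BNS and SNS (95% interval 0.12 to 0.56, limma adjusted p = 0.0241) and 0.31 between BYS and SNS (0.08 to 0.53, adjusted p = 0.0410). The former lost its call without SNS replicate 1 (0.28, adjusted p = 0.0802) or BNS replicate 1 (0.30, adjusted p = 0.0782). The latter was 0.24 without BYS replicate 2 and 0.40 without BYS replicate 4, and it was called in 12 of 20 fits that each left out 1 sample. With all channels scaled to a common median it was 0.09 (adjusted p = 0.786), and the former was 0.48 (adjusted p = 0.0700). From BNS to BYS the difference was -0.03, from BYS to BYA -0.14 and from BYS to BYP -0.10. With both channels of an array taken as related, neither difference from SNS passed (adjusted p of 0.0999 for BNS and 0.143 for BYS).

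**Figure D2:**
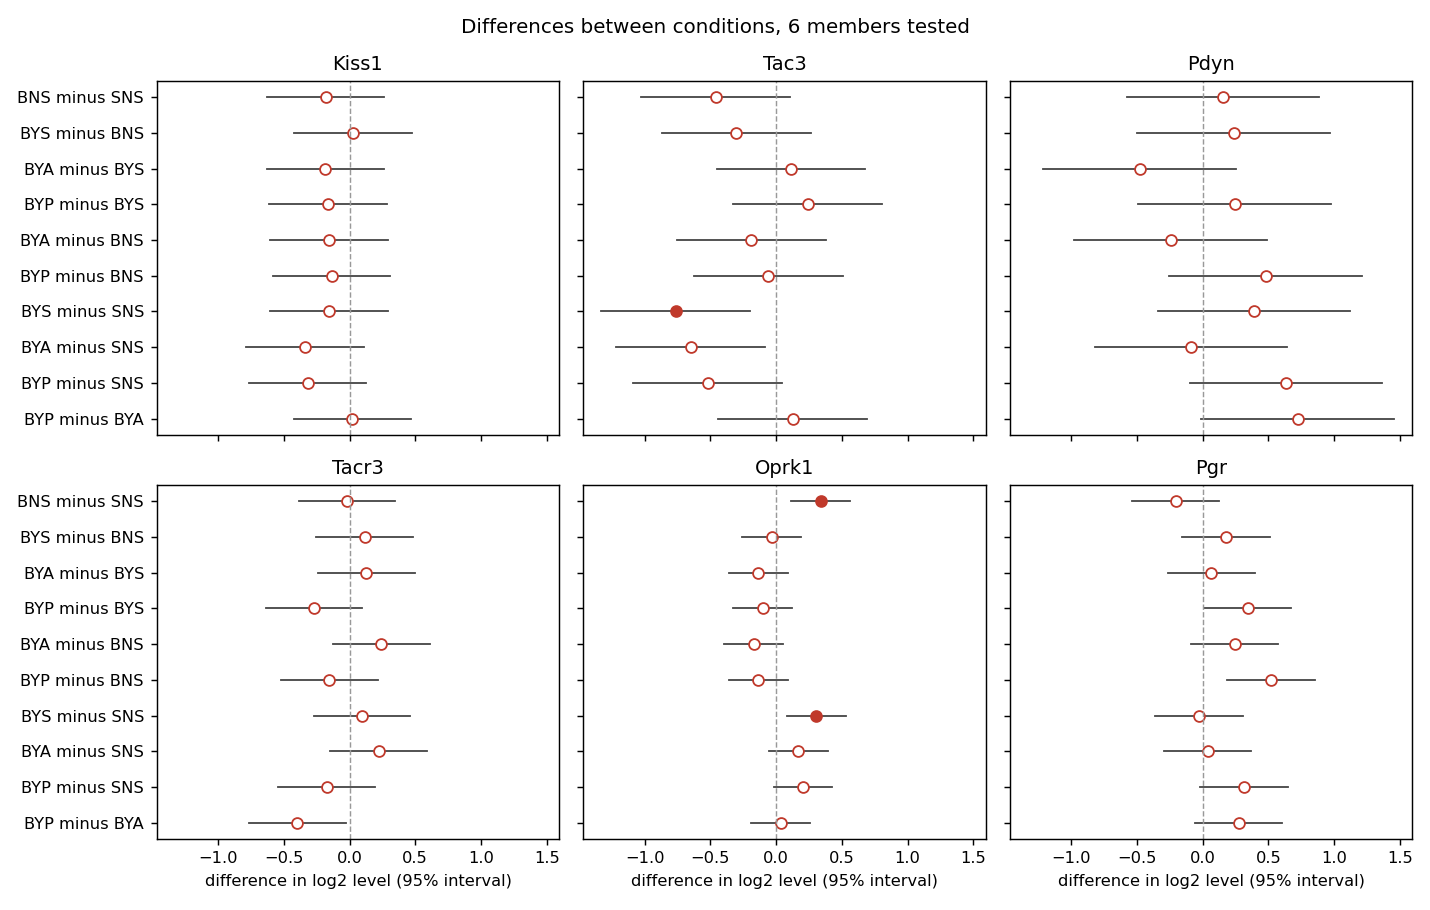
Difference in log2 level (horizontal axis) with its 95% interval for each of 6 genes in the 10 comparisons between conditions (rows), filled where limma's adjusted p over all genes is under 0.05. The 3 filled points are Tac3 between BYS and SNS (-0.76) and Oprk1 between BNS and SNS (0.34) and between BYS and SNS (0.31).

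Esr1, the estrogen receptor through which estradiol acts on KNDy neurons, was read by a probe printed as 10 spots and was near the background. Its level lay between 7.31 and 7.52 over the 20 samples, a range of 0.21. The mark was carried by 0.5 or more of these spots in BNS replicate 4 (6 of 10 spots), BYS replicate 2 (5 of 10) and BYS replicate 4 (6 of 10), all of them Cy5 samples. No spot was marked so in SNS, BYA or BYP. These arrays therefore give no order of Esr1 between the conditions.

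Pgr, the progesterone receptor, was low and did not pass the test in any comparison. Its level was 7.82, 8.06, 8.12 and 8.09 in SNS, 7.76, 7.67, 7.93 and 7.91 in BNS, and 7.93, 8.13, 7.95 and 7.96 in BYS. It was 7.93, 8.06, 7.80 and 8.47 in BYA and 7.99, 8.01, 8.54 and 8.81 in BYP. BYP replicates 3 and 4 were the highest of all samples, and the BNS samples lay below all BYP samples. The probe was well above background in 2 of 4 SNS, 3 of 4 BNS, 4 of 4 BYS, 2 of 4 BYA and 3 of 4 BYP samples, 4 of them Cy3 and 10 Cy5.

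BYP exceeded BNS in Pgr by 0.52 (95% interval 0.19 to 0.85, limma adjusted p = 0.0959), without overlap, as was found for 13.2% of all genes. BYP exceeded BYS by 0.34 (0.01 to 0.67, adjusted p = 0.576). Without BYP replicate 4 these differences were 0.38 and 0.20. BYS lay above BNS by 0.18 with no overlap, although the nearest samples were both at 7.93 (adjusted p = 0.921), as was found for 6.43% of all genes. The steps from SNS to BNS and from BYS to BYA were -0.20 (-0.54 to 0.13) and 0.07 (-0.26 to 0.40).

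**Figure D3:**
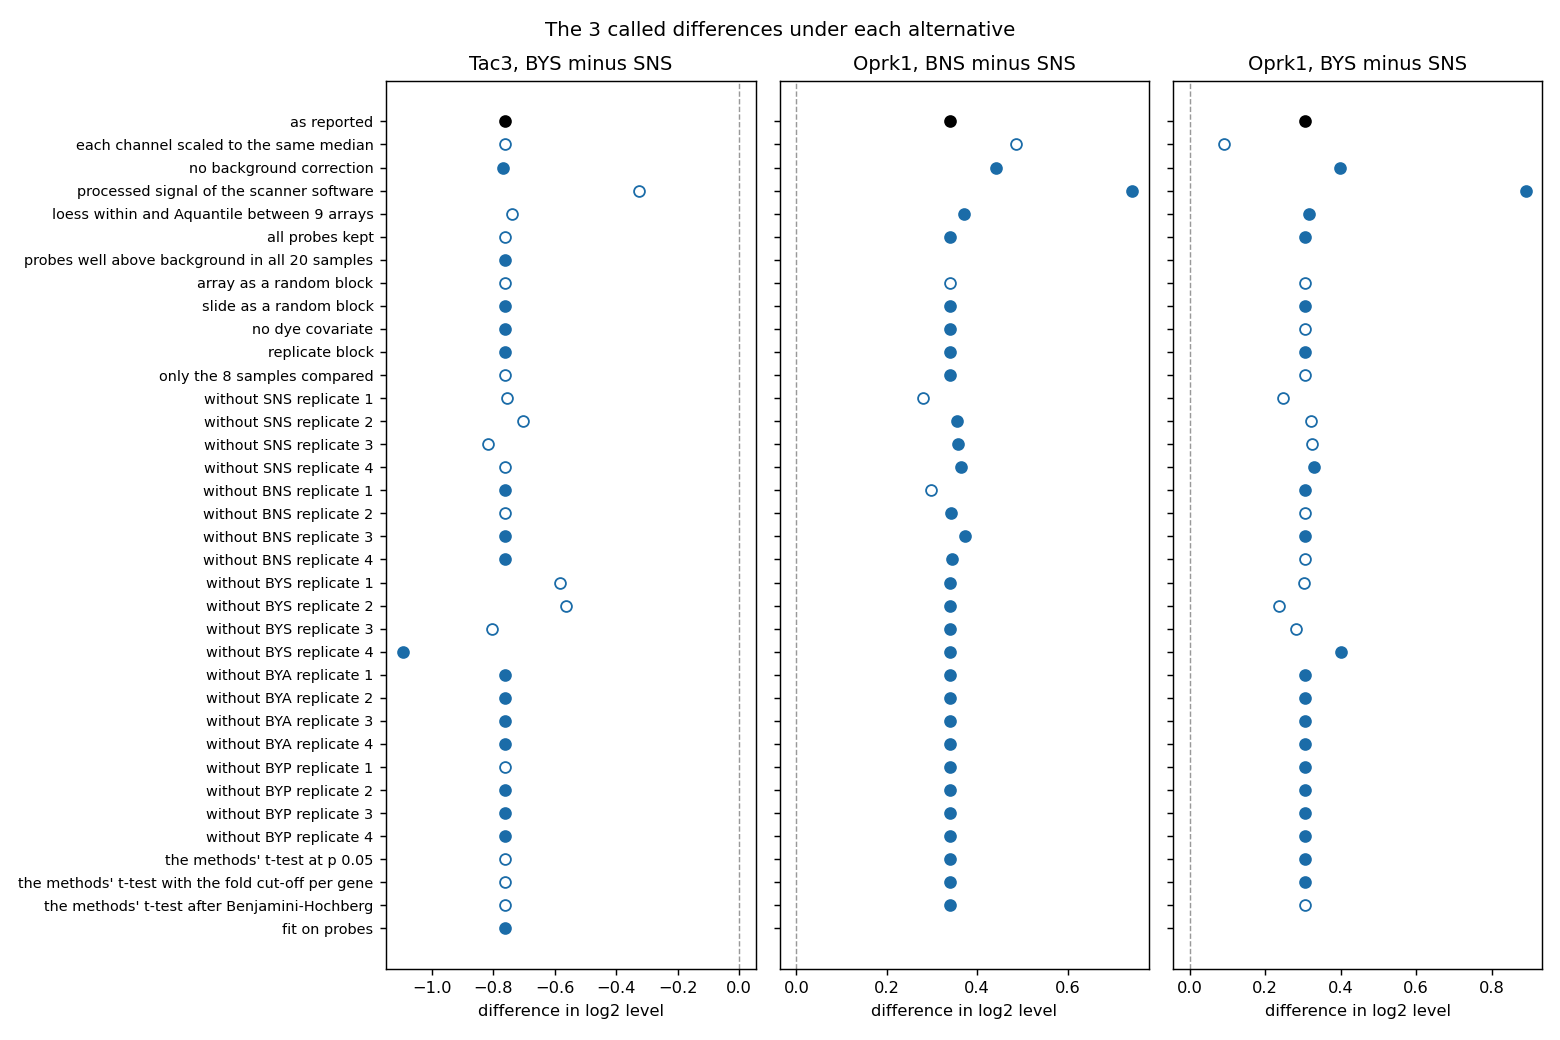
Difference in log2 level (horizontal axis) of the 3 called differences as reported (black) and under each alternative way of processing or testing (rows), filled where it passed the threshold of that test and missing where the alternative gave no value. The difference of Tac3 between BYS and SNS runs from -1.09 without BYS replicate 4 to -0.33 with the processed signal, and Oprk1 between BYS and SNS falls to 0.09 when channels are scaled to a common median.

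The genes that work with these peptides and receptors were taken from 8 lists of 47 genes, of which 41 were measured. Gnrhr, Npffr1, Tac4, Oprm1 and Lin28b did not pass the filter on dim probes, and Cyp19a1 was not found under that name. Between BNS and SNS, 9 of 41 genes (22%) passed the test, 6 higher and 3 lower in BNS, with a median difference of -0.04, the same as over all genes (-0.04). This share was below the 28.6% of all genes that passed.

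Among the enzymes that process peptide precursors, 2 of 6 passed between BNS and SNS. Cpe, which trims basic residues from peptide intermediates, was higher by 1.00 (limma adjusted p = 0.000863, with SNS replicate 1 missing as an outlying spot), and Pam, which amidates the end of peptides such as kisspeptin and neurokinin B, was lower by a difference of -0.75 (adjusted p = 0.0234). Of 5 measured opioid genes outside the dynorphin system, Oprd1, the delta opioid receptor, passed (0.53, adjusted p = 0.00113), and Penk, the precursor of enkephalins, differed by -0.02. Of 3 measured tachykinin genes, Tacr2, the main receptor of neurokinin A, passed (0.31, adjusted p = 0.0255).

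Of 3 measured genes of the gonadotropin-releasing hormone axis, Npvf, whose peptides restrain that axis, passed (-0.51, adjusted p = 0.0453, with SNS replicates 1 and 2 missing as outlying spots). Kiss1r, the receptor of kisspeptin, was at a difference of -0.23 (adjusted p = 0.0804), and Gnrh1, the hormone's precursor, at 0.05 (adjusted p = 0.692). Of 6 measured regulators of the onset of puberty, Mkrn3, a brake on that onset, was higher in BNS by 0.97 (adjusted p = 0.000366). Of 5 further steroid receptors, Nr3c1, the glucocorticoid receptor, passed (0.34, adjusted p = 0.00826), whereas Esr2, the other nuclear estrogen receptor, differed by -0.03 (adjusted p = 0.842). Of 8 co-regulators of steroid receptors, Ncor1, a co-repressor, passed (-0.40, adjusted p = 0.0219), and of 5 measured enzymes that make or convert steroids, Srd5a1, which reduces testosterone and progesterone, passed (0.30, adjusted p = 0.0396).

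In the later steps of the design, 0 of the 41 genes passed by limma between BYS and BNS, BYA and BYS, or BYP and BYS. Between BYP and BNS, 2 of 41 (4.88%) passed, where 1.5% of all genes did. Oprd1 was lower in BYP (-0.75, adjusted p = 0.00182) and Fkbp5, a co-chaperone of steroid receptors that glucocorticoids induce, was higher (1.26, adjusted p = 0.0167), both without overlap of the samples, as was found for 13.2% of all genes.

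Samples of the same condition were then compared for genes that moved together, with the mean of each condition and the effect of the dye taken out. This was done over 15 pairs of the 6 genes, with p from 100000 permutations within conditions. Most rats shared an array with another of their condition, so p-values that take rats as separate may be too small. Kiss1 and Tac3 moved together (Pearson's r = 0.59, adjusted permutation p = 0.0190, n = 20). Spearman's rho was 0.63 (adjusted permutation p = 0.0207), and r was 0.52 without the pair of samples farthest from the median of Kiss1. BNS replicate 3 was the highest of its condition in both genes. With each array's mean removed as well, which leaves 18 samples, r was 0.85. Both samples of an array then deviate by equal and opposite amounts, so these 18 values hold only 9 separate ones. No p is therefore given for any r within arrays. With all channels scaled to a common median, r was 0.22 (adjusted permutation p = 0.450).

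Tac3 and Oprk1 moved in opposite directions, with r = -0.74 and rho = -0.68 (adjusted permutation p = 0.0190 and 0.0406, n = 20). Oprk1 here is the mean of its 2 probes, which gave different results between BNS and SNS. They were well above background in 17 and 9 of 20 samples, and no r is given for either probe. For Tac3 and Oprk1, r was -0.55 without the pair of samples farthest in Tac3, -0.71 within arrays and -0.67 under the median scaling (adjusted permutation p = 0.185). Kiss1 and Oprk1 also moved oppositely (r = -0.63, rho = -0.60, adjusted permutation p = 0.0190 and 0.0406, n = 20), with r = -0.74 without the farthest pair in Kiss1. That relation was -0.42 within arrays and turned to 0.10 under the median scaling (adjusted permutation p = 0.709). Within conditions, the mean of 6 ventromedial markers had r = -0.68 with Kiss1, -0.46 with Tac3 and 0.52 with Oprk1. For 7 markers of tanycytes and ependyma r was 0.43, 0.67 and -0.47, and for 9 arcuate markers 0.38, 0.51 and -0.38. Their r with the other marker lists is not reported here. The part of cell content or neighbouring tissue in the relations of Kiss1, Tac3 and Oprk1 was not tested.

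Pdyn and Tacr3 had r = -0.59 and rho = -0.53 (adjusted permutation p = 0.0211 and 0.0751, n = 20), and r = -0.64 without the farthest pair in Pdyn. Within arrays r was -0.62, and it was -0.39 under the median scaling (adjusted permutation p = 0.185). In SNS, replicate 3 was the highest in Pdyn and the lowest in Tacr3, and it was also the lowest in the mean of 6 markers of the premammillary and mammillary nuclei (8.39, the others 9.27 to 9.76) and of 6 oligodendrocyte markers (9.41, the others 10.33 to 11.24). In BYA, replicate 1 was the lowest in Pdyn and the highest in Tacr3 and in both marker means (9.54 and 10.91). In BNS, by contrast, replicate 3 was the lowest in Pdyn but not the highest in Tacr3 or in either marker mean (9.15 and 9.98). The part of neighbouring tissue in this relation was not tested. Pdyn showed no such relation with the other peptides of KNDy neurons, with r = -0.32 against Kiss1 (adjusted permutation p = 0.584) and -0.14 against Tac3 (adjusted permutation p = 0.846). Oprk1 and Pgr had r = -0.06 as reported and 0.71 within arrays, where no p is given.

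**Figure D4:**
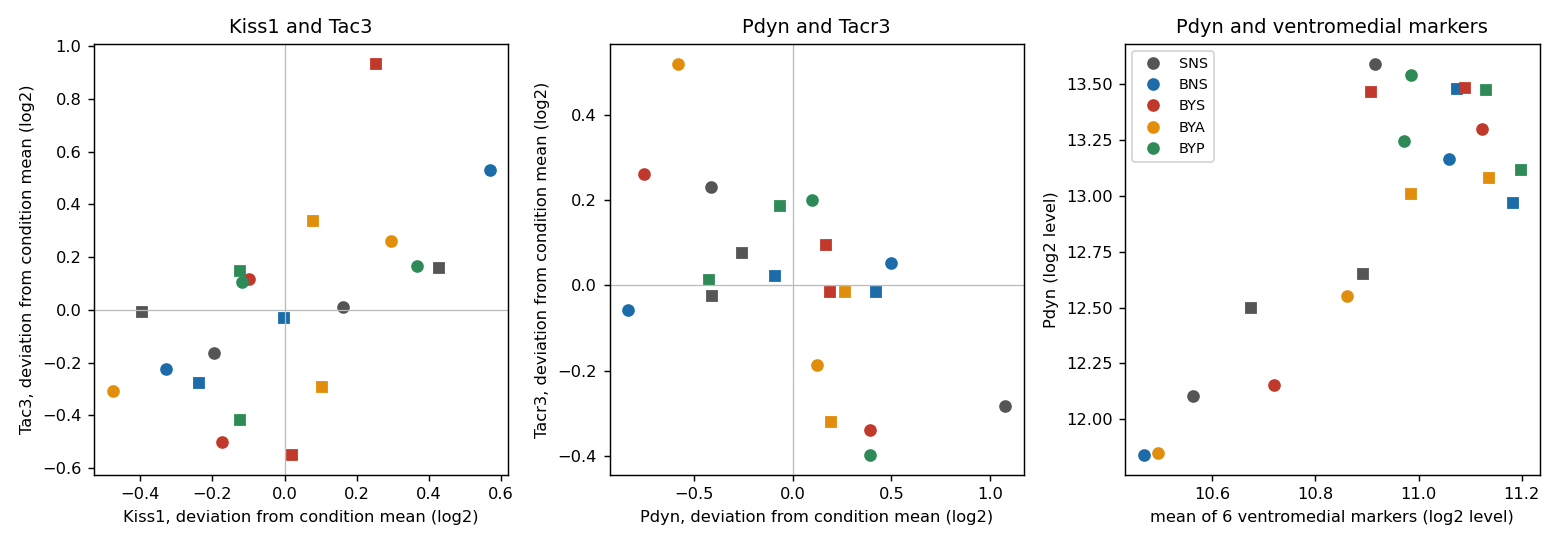
Left and middle, deviation of each of 20 samples from the mean of its condition (log2, dye effect removed) for Kiss1 against Tac3 and for Pdyn against Tacr3, and right, the log2 level of Pdyn against the mean of 6 ventromedial markers, with colours for conditions, circles for Cy3 and squares for Cy5. The points rise in the left panel (r = 0.59), fall in the middle panel (r = -0.59), and the sample lowest in both Pdyn and the markers is BNS replicate 3 at 11.84 and 10.47.

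The genes whose levels over the 20 samples were most like those of each gene, by Pearson's r with the dye effect removed and among 16298 genes without a missing value, are given as a description, each with its r over all samples and then its r within conditions. For Kiss1 they were Lrrc51 (0.81 and 0.81), Mcee (0.79 and 0.88) and Bcap31 (0.79 and 0.76), and for Tac3 Lypd2 (0.87 and 0.89), Dnm2 (0.84 and 0.79) and Med12 (0.83 and 0.92). Pdyn was most like Smpdl3b (0.86 and 0.86), a probe without a gene name (0.84 and 0.81) and Lamb3 (0.83 and 0.84), and Tacr3 most like Mdga1 (0.84 and 0.80), Arhgef2 (0.82 and 0.85) and Ralyl (0.81 and 0.90). Oprk1 was nearest to Mrps5 (0.92 and 0.87), Sbspon (0.92 and 0.88) and Rap1a (0.87 and 0.75), and Pgr to Grifin (0.85 and 0.86), Fxyd3 (0.80 and 0.70) and Kti12 (0.80 and 0.70). None of the 6 genes had another of them among these nearest genes, and the r over all samples holds differences between conditions and slides as well as those within them.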

How the data were processed

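The authors labelled RNA of single rats with Cy3 or Cy5, hybridized 2 rats per array (of the same condition on 9 of 11 arrays), and deposited the scanner output of each array. Per the file headers, the mean and background columns are spot intensities before correction, and the processed signals are intensities after background subtraction and dye normalization by the software. The deposited flag columns mark each spot as well above background, outlying or saturated. The extraction software is given as version 10.7.3.1 in the submitters' processing notes and 11.5.1.1 in the file headers. In all, 82 columns of a male series on 2 arrays were not used. For BYA replicate 3, on such an array, the label says Cy3, which does not match the order in the name of the raw data, and the label was followed.

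Each channel was taken as a sample. Mean intensities were corrected by limma's normexp (offset 50), quantile normalized over 20 channels on the log2 scale, cleared of outlying spots (1.18%) and averaged per probe. Probes with at least 0.5 of their spots well above background in all samples of some condition were kept (19883 probes, 17086 genes), and probes of a gene were averaged. Accessions of 18643 of 30367 probes (61.4%) matched current symbols, and other probes kept the symbol in the files. All 10 comparisons came from 1 limma fit with condition and dye, with Benjamini-Hochberg adjustment over all genes (R 4.3.3, limma 3.58.1, statmod 1.5.0). A call is an adjusted p under 0.05. The fit was tested on simulated data with independent channels, which cannot show how it performs where 2 rats share an array. In the real data the consensus correlation was 0.365 between channels of an array and -0.128 between samples of a slide. The number of arrays limits the precision.

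The genes and lists were chosen with earlier results of these data known. The text names all members, genes of the pathway and marker lists (those singled out were chosen after their values were seen), and for each member the 3 genes with the highest Pearson's r. Values of some list genes are not reported here. Alternatives covered scaling, background correction, processed signals, loess, the filter on dim probes, array and slide as blocks, the dye, replicate number, the 8 samples compared, each sample left out, the methods' t-test, and a fit on probes. The leave-one-out of correlations and the alternatives for the 2 probes of Oprk1 were added after seeing the data. No pairing by replicate number was seen on average, as the deviations of same-numbered samples from their condition means correlated by 0.0031 (from -0.239 to 0.28). Such an average cannot exclude pairs in some conditions or shared litters.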

Additional observations from a re-analysis of the deposited data

Results flagged for a closer look

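In 40 sets of 4 samples (the 8 probes in 5 conditions), 3 held a sample whose gap to its nearest neighbour was unusually wide for the range of the set, and chance gives about 5% of such sets. Tac3 in BYP replicate 4 was at 12.12, with the other BYP samples at 12.68 to 12.80. Pdyn in BYS replicate 1 was at 12.16, with the other BYS samples at 13.30 to 13.48, and the same sample had the lowest mean of ventromedial markers in BYS (10.72). Pgr in BYS replicate 2 was at 8.13, with the other BYS samples at 7.93 to 7.96.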

How the results depend on the processing

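Of 39 differences of single genes or probes, 495 of 554 values under the alternatives kept their direction and their side of the threshold, 21 lost the call, 25 gained it and 13 reversed. The cause was not tested, except that the filter on probes well above background in all 20 samples leaves out Oprk1, and that the fits on 8 samples and with each sample left out hold fewer samples. Signal over background limits Oprk1, Pgr and Esr1. The gain of probe A_43_P15269 of Oprk1 in BNS over SNS was called under each of 13 alternatives (0.88 to 1.35).

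The members called between BNS and SNS numbered 0 instead of 1 with the filter on all 20 samples and with array as a random block. Between BYS and SNS they numbered 0 instead of 2 under median scaling, with array as a random block, with only the 8 samples compared and by the methods' t-test after Benjamini-Hochberg. They numbered 1 there with the processed signal, loess, all probes kept, the filter on all 20 samples, no dye covariate, and the methods' t-test at p 0.05 with or without the fold cut-off. Between BYP and BYS 1 member instead of 0 was called under median scaling (Pgr, 0.92, adjusted p = 0.0476), and between BYP and BNS 1 with slide as a random block (Pgr). No slide held more than 1 condition, and a negative correlation within slides (-0.128) narrows the errors between conditions. Calls gained with slide as a random block are therefore no added support. Between BYA and SNS 1 was called with slide as a random block, with only the 8 samples and by the methods' t-test at p 0.05 with or without the cut-off (Tac3). Between BYP and SNS 2 were called under median scaling and by that t-test, 3 with slide as a random block and 1 with only the 8 samples. Between BYP and BYA 1 was called by that t-test (Pdyn). By the F test 1 was called under median scaling and in the fit on probes, and 3 with slide as a random block. Under median scaling the member called between BNS and SNS was Tac3 (-0.90, adjusted p = 0.0295) in place of Oprk1 (0.48, adjusted p = 0.0700).

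Under median scaling, Pdyn between BNS and SNS turned to -0.24, Tac3 and Pgr between BYS and BNS to 0.14 and -0.20, Oprk1 between BYA and BYS to 0.084, and Tac3, Pdyn, Oprk1 and its probe A_43_P15269 between BYP and BYS to -0.32, -0.33, 0.48 and 0.050. That scaling moved the median of all genes between BNS and SNS from -0.04 to -0.14 and the share of higher genes among those called from 52.9% to 29.8%. With the processed signal, Tacr3 and probe A_64_P096619 of Oprk1 between BNS and SNS turned to 0.25 and 0.14, Oprk1 between BYS and BNS to 0.15 and Pgr between BYA and BYS to -0.39. With loess, Kiss1 between BYA and BYS turned to 0.0043. The correlations of Kiss1 with Tac3, Kiss1 with Oprk1, Tac3 with Oprk1 and Pdyn with Tacr3 were 0.22, 0.10, -0.67 and -0.39 under median scaling, and with array removed Kiss1 with Oprk1 and Pdyn with Tacr3 were -0.42 and -0.62.

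Leaving out 1 sample at a time, the members called numbered 0 to 1 between BNS and SNS, 0 to 2 between BYS and SNS, 0 to 1 between BYA and SNS, 0 to 1 between BYP and SNS and 0 to 2 by the F test. The differences that changed sign ran from -0.024 to 0.54 (Pdyn) and -0.12 to 0.063 (Tacr3) between BNS and SNS, from -0.092 to 0.23 (Kiss1), -0.060 to 0.51 (Pdyn) and -0.10 to 0.062 (Oprk1) between BYS and BNS, from -0.084 to 0.45 (Tac3), -0.059 to 0.24 (Tacr3) and -0.052 to 0.14 (Pgr) between BYA and BYS, and from -0.025 to 0.39 (Pdyn) between BYP and BYS. The 4 correlations ran from 0.48 to 0.66, -0.75 to -0.55, -0.80 to -0.55 and -0.71 to -0.51, in the order above.

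With the replicate number as a block, none of the 39 differences gained or lost a call or reversed, and Tac3 between BYS and SNS had an adjusted p of 0.0486. The highest gene counts below came from slide as a random block, which cannot separate slide from condition. The exceptions were BYA against BYS (loess) and BYP against BYS (median scaling). Over the limma fits and the adjusted t-test, the genes called ran from 2329 to 8142 between BNS and SNS (4884 as reported), 1435 to 7853 between BYS and SNS (4630), 1389 to 7781 between BYA and SNS (5342), 1892 to 8130 between BYP and SNS (4937), 0 to 179 between BYS and BNS (5), 0 to 225 between BYA and BYS (0), 0 to 2849 between BYP and BYS (6), 0 to 856 between BYA and BNS (20), 0 to 2648 between BYP and BNS (257), 0 to 1027 between BYP and BYA (27) and 2077 to 10531 by the F test (5198).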

Other observations

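The pathway genes were also set against SNS in the conditions with spasms, which share the SNS samples with each other and with the comparison of BNS. Between BYS and SNS 8 of 41 genes (19.5%) passed, between BYA and SNS 11 (26.8%) and between BYP and SNS 12 (29.3%), near or below the 27.1%, 31.3% and 28.9% of all genes that passed in these comparisons. Cpe, a peptide-processing enzyme, was higher than in SNS by 1.02 in BYS (limma adjusted p = 0.000731, with SNS replicate 1 missing as an outlying spot), 1.03 in BYA (adjusted p = 0.000598) and 1.01 in BYP (adjusted p = 0.000795). Mkrn3, a brake on the onset of puberty, was higher by 0.91 in BYS (adjusted p = 0.000698), 0.91 in BYA (adjusted p = 0.000616) and 0.69 in BYP (adjusted p = 0.00533), with no overlap in any of the 3 comparisons, as was found for 27.1%, 26.7% and 26.6% of all genes. Tacr1, the receptor of substance P, was higher by 0.42 in BYS, 0.32 in BYA and 0.34 in BYP (adjusted p = 0.0123, 0.0413 and 0.0330).

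Kiss1r, the kisspeptin receptor, was lower than in SNS in BYS (-0.29, adjusted p = 0.0301) and BYP (-0.33, adjusted p = 0.0157), and its difference in BYA was -0.19 (adjusted p = 0.128). Esr2 was lower in BYA (-0.32, adjusted p = 0.0147) and BYP (-0.25, adjusted p = 0.0490), with a difference of -0.14 in BYS (adjusted p = 0.274). Npvf, with SNS replicates 1 and 2 missing as outlying spots, was lower in BYP (-0.76, adjusted p = 0.00619), and its differences in BYS and BYA were -0.46 and -0.41 (adjusted p = 0.0687 and 0.0988). Whether these differences themselves differ between BYS, BYA and BYP is the comparison of those conditions with each other, in which 0 of the 41 genes passed by limma.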
